A study of Mus musculus with 503 samples.

Results

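The cytosolic ribosomal protein genes encode the proteins that, with ribosomal RNA, build the large and the small subunit of the ribosome. They were taken from a table of 56701 genes by their symbols, as every Rpl or Rps symbol with a number (with letter or paralog endings), the stalk genes Rplp0, Rplp1 and Rplp2, and Rpsa, without the -ps pseudogene symbols and without the S6 kinase genes. This gave 90 genes, 54 of the large and 36 of the small subunit. In RefSeq 85 of them are protein coding, 4 are pseudogenes and 1, Rps4l, is a transcribed pseudogene. They lie on 19 chromosomes, 4 of them on X. Of the 90 genes, 82 reached 10 CPM (the usual scaling of a gene's counts by all gene counts of the group) in at least 1 of the 4 groups of cells, 49 of the large and 33 of the small subunit, and 8 did not.

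The cells came from the spinal cord of adult GLAST-CreERT2;R26R-tdTomato;Pdgfrb-eGFP mice, all of which had the same genotype. The labels give them as female. The study's methods limit crush lesions to female mice, whereas its reporting summary names both sexes for sequencing. Tamoxifen activated a Cre recombinase driven by the promoter of Slc1a3 (GLAST), a glutamate transporter gene, and so switched on tdTomato in the cells expressing it, while EGFP marked cells with PDGFRb, a receptor of pericytes, vascular smooth muscle cells and fibroblasts. EGFP+ cells with or without tdTomato were sorted from uninjured mice and from mice 3 days after a complete crush of the cord at T10, and each cell was made into a Smart-seq3 library. Since every sorted cell was EGFP+, the sorts are called tdTomato+ and tdTomato- here. After filtering, the uninjured tdTomato+ group held 65 cells on plate 209 and 72 on plate 213, the uninjured tdTomato- group 46 and 60, the injured tdTomato+ group 88 on plate 211 and 34 on plate 215, and the injured tdTomato- group 58 and 45. The labels name no animal, so each group was treated as 1 sample, no test was made, and the values of separate plates are given as the spread. Both sorts were on every plate but each plate held 1 treatment, so injury and plate cannot be told apart, while the sorts can be compared within a plate.

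Ribosomal proteins are made in matched amounts and assembled with ribosomal RNA in the nucleolus, so their messengers are among the most abundant of a cell, and their output is tied to growth. Most of their messengers start with a short run of pyrimidines, the TOP (terminal oligopyrimidine) motif, through which the mTORC1 kinase and the LARP1 protein control their translation and stability as a class, and Myc raises transcription of many of them. Several are also known outside the ribosome: Rpl5 and Rpl11 bind Mdm2 together with 5S RNA, Rpsa is a laminin-binding protein, and Rps27a is made as a fusion with ubiquitin.

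The start sites of the genes that differed most and least after injury in tdTomato+ cells are shown with 15 bases before and 15 from the annotated start, to let a reader see which of them carry the motif there. Capitals mark a run that begins with a C within 5 bases of the start and goes on with 4 or more bases that are each C or T. The sequences are from RefSeq on GRCm38.p6, the build of the labels' alignment (mm10), written 5′ to 3′ on the strand of the gene, and all but Rpsa, Rplp0 and Rpl22 were added after their values were seen.
Rpsa, chr9:120127751-120127780, plus strand: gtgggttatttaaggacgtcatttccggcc
Rplp0, chr5:115559452-115559481, plus strand: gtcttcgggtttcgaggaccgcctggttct
Rps18, chr17:33955651-33955680, minus strand: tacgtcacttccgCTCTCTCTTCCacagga
Rpl35, chr2:39005117-39005146, minus strand: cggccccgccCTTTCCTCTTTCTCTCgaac
Rpl22, chr4:152325711-152325740, plus strand: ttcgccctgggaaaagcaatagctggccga
Rpl7l1, chr17:46782642-46782671, minus strand: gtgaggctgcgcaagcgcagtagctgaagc
Rps27l, chr9:66946071-66946100, plus strand: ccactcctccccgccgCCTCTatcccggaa
Rpl22l1, chr3:28805493-28805522, plus strand: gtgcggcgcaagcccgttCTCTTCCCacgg
Rps18 and Rpl35, both among the largest injury differences, carried runs of 11 and 16 bases, whereas Rpsa and Rplp0, which were larger still, had none in this window, and of the smallest differences Rpl22 and Rpl7l1 had none while Rps27l and Rpl22l1 carried runs of 5 and 8. Rpl22 and Rps27l have another annotated start, at which neither had a run. Of the 61 ribosomal protein genes at 10 CPM or more with a start in the RefSeq promoter table, 29 (47.5%) had a run, against 19.7% of all 27025 promoters of the table. On the antisense strand the shares were 14.8% and 22.8%. The injury difference in tdTomato+ cells had a median of 1.97 (log2) in the 29 genes with a run and 2.00 in the 32 without, close to each other. A match is a description of these letters, and a start annotated a few bases off would hide a run.

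Gene counts per cell ran from 233 to 870504 with a median of 242558, and the summed counts of a group from 25645409 to 38406035. Injured tdTomato+ cells stood apart in depth: a cell of plate 215 held 14770 counts at the median and the 34 cells 1677209 in all, against 29456220 for the 88 cells of plate 211, so values summed over this group are almost those of plate 211. Plate 211 also carried another set of symbols: 307 symbols with 100 or more counts on each other plate had none there (Septin7 and H2az2 among them), 421 with 100 or more counts were found there alone, and it alone carried spike-in counts. The levels of the driver genes followed the sort labels: Slc1a3 was at 212 and 207 CPM in uninjured and injured tdTomato+ cells and at 31.5 and 10.7 CPM in tdTomato- cells, and Pdgfrb was between 1213 and 2491 CPM in all 4 groups. The make-up of the groups differed: the summed level of 9 pericyte markers was 11378 and 12552 CPM in the uninjured tdTomato+ and tdTomato- groups, 797 in injured tdTomato+ and 11536 in injured tdTomato- cells, that of 9 perivascular fibroblast markers was 4382, 2339, 22150 and 9885 CPM in the same order, and that of 6 endothelial markers 5418, 5655, 409 and 2006 CPM. Their part in the differences below was not tested. Immune, astrocyte and oligodendrocyte markers summed to at most 182 CPM in any group, and only 2 oligodendrocyte markers were at 0 in any of them.

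Ribosomal protein counts made up 6.81% of all gene counts in injured tdTomato+ cells (exact binomial 95% interval 6.80 to 6.82) and 2.95% (2.94 to 2.96) in injured tdTomato- cells, against 1.61% (1.61 to 1.62) and 1.39% (1.38 to 1.39) in the uninjured groups of the same sorts. These intervals cover counting error only and are far narrower than the spread between plates. On separate plates the share was 6.87% and 5.64% in injured tdTomato+ cells (plates 211 and 215), 3.26% and 2.67% in injured tdTomato- cells, 1.45% and 1.73% in uninjured tdTomato+ cells (plates 209 and 213) and 1.35% and 1.40% in uninjured tdTomato- cells. The plate values of the 4 groups did not overlap. Both subunits took part: the large subunit made up 0.967%, 0.838%, 4.23% and 1.84% of counts and the small subunit 0.647%, 0.548%, 2.58% and 1.11% in the uninjured tdTomato+, uninjured tdTomato-, injured tdTomato+ and injured tdTomato- groups. The ratio of large to small subunit counts was 1.49 and 1.53 in the uninjured groups and 1.64 and 1.67 in the injured groups, but on plate 215 it was 1.50 and 1.56 and on plate 211 it was 1.65 and 1.77, so the higher ratio of the injured groups came with plate 211.

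Single cells showed the same order of the groups. The share per cell had a median of 1.64% in uninjured tdTomato+ cells (range 0.237% to 20.3%), 1.47% in uninjured tdTomato- cells (0.468% to 16.1%), 7.25% in injured tdTomato+ cells (1.15% to 18.8%) and 3.02% in injured tdTomato- cells (0.756% to 10.2%). At least 5% was reached by 97 injured tdTomato+ cells (79.5% of the group, exact 95% interval 71.3% to 86.3%, with 68 of 88 and 29 of 34 on the plates), 10 injured tdTomato- cells (9.71%, 4.75% to 17.1%), 2 uninjured tdTomato+ cells (1.46%, 0.177% to 5.17%) and 5 uninjured tdTomato- cells (4.72%, 1.55% to 10.7%). All 7 uninjured cells at that level had fewer than 20000 counts, while the injured tdTomato- cells at that level had 32092 or more. When every cell was thinned to 20000 counts and shallower cells (10, 14, 22 and 1 in the 4 groups) were left out, the medians were 1.61%, 1.42%, 7.22% and 2.99% and the highest uninjured cell stood at 4.04%. Plate 215, where 21 of the 34 injured tdTomato+ cells fell below 20000 counts, still gave a thinned median of 5.61% over its 13 deeper cells, against 7.23% over 87 cells of plate 211. At this equal depth a cell had counts for a median of 72, 68, 81 and 77 of the 82 genes, and 9, 6, 45 and 21 genes were found in every cell of the group.

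**Figure D1:**
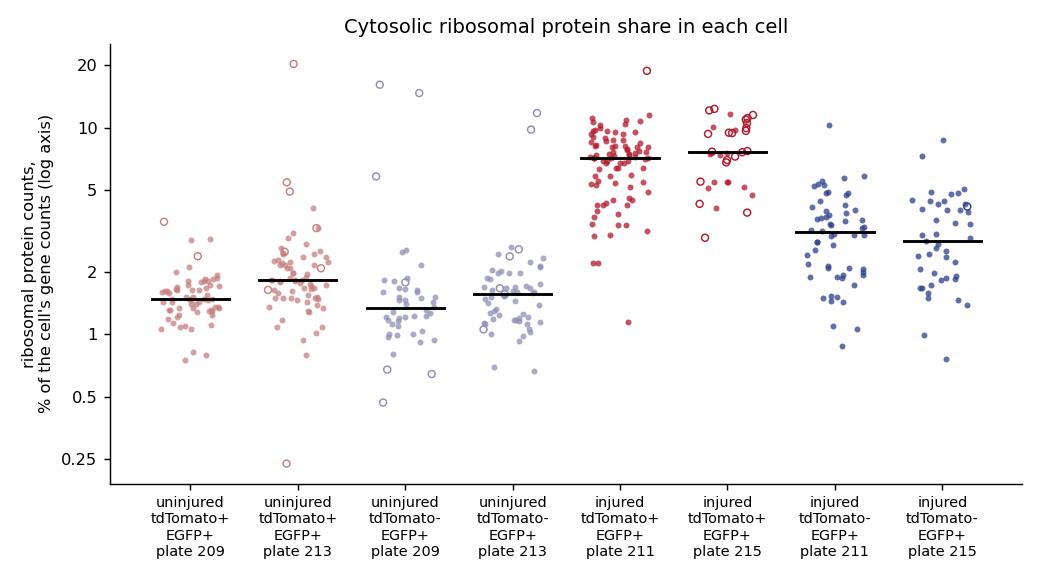
Share of ribosomal protein counts in each cell (percent of its gene counts, log axis) by group and plate, with open circles for cells under 20000 counts and a bar at the median. Injured tdTomato+ cells lay highest on both plates (medians 7.13% and 7.58%), and the uninjured cells above 5% were all open circles.

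Differences of single genes are given as differences of log2(CPM + 1) between groups, which understates the change of low genes, with the range over plates or plate pairs in brackets, and a gene is called higher or lower at a difference of 1 or more with at least 10 CPM in the higher group. In tdTomato+ cells injury went with a median difference of 1.98 over the 82 genes (1.70 to 2.16 over the 4 plate pairs), close to 3.95-fold, while the median of all 11429 genes was -0.59. By size, the rule called 76 of the 82 genes higher and 1 lower, against a background of 13.2% of all genes higher and 37.1% lower. The median was 2.00 for the large and 1.89 for the small subunit. In each of the 4 plate pairs 81 of 82 genes were above 0, the exception being Rps4l, against 2479 of all 11429 genes. In tdTomato- cells the injury difference had a median of 1.08 (1.00 to 1.19), close to 2.12-fold, with 48 of 82 genes called higher and 0 lower, against 11.5% and 18.7% of 11434 genes, whose median was -0.20. The large subunit stood at 1.10 and the small at 1.00, and 76 genes were above 0 in each plate pair, against 2351 of all 11434 genes.

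Between the sorts, the injured cells differed and the uninjured cells differed little. Injured tdTomato+ minus tdTomato- cells gave a median of 1.15 on plate 211 and 1.07 on plate 215. On these plates 81 and 82 of the 82 genes were above 0, against 4156 and 4005 of all 10631 genes. In the summed groups the median was 1.18, above both plate values, with 63 of 82 genes called higher and 1 lower, where 5.38% of 10631 genes were higher and 20.2% lower. The summed groups mix the plates unlike: injured tdTomato+ counts came almost all from plate 211, whereas injured tdTomato- counts were 12201222 and 13444187 on plates 211 and 215. The counts of calls are thus not within-plate values. In uninjured cells the median was 0.14 on plate 209 and 0.38 on plate 213, and no gene was called in either direction, against 4.8% of 11198 genes higher and 4.62% lower. The genes farthest above the median on both plates were Rpl12 (0.52, 0.15 to 0.74), Rps20 (0.46), Rpl28 (0.45), Rpl24 (0.41) and Rps15a (0.40), and those farthest below were Rpl7l1 (-0.24, -0.36 to 0.00), Rpl22l1 (-0.19, -0.85 to 0.22), Rpl7a, Rplp0 and Rpl3 (each 0.05). In all, 80 of the 82 genes were above 0 in the summed uninjured groups, and 67 on both plates. Of all 11198 genes, 5694 were above 0 in the summed groups and 3259 on both plates, and their median was 0.01. The injury difference in tdTomato+ cells exceeded that in tdTomato- cells by a median of 0.88 (0.72 to 1.00), with 26 genes called higher and 1 lower, against 6.99% and 26% of 12081 genes. These calls are from the summed groups too, with the same unlike mix of plates. These 5 comparisons share their groups and are no independent evidence of one another. The count of 26 depended most on the scaling, with 73 under TMM and 77 under DESeq2 factors, and also on plates and cells: it was 8 without plate 211, 42 without plate 213, 40 when every cell weighed the same and 12 in cells without a count of a cycling marker.

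The level of the scale mattered for the sizes. Scaling by factors set on the bulk of genes (TMM of edgeR, size factors of DESeq2) moved the median of all genes after injury in tdTomato+ cells from -0.59 to 0.13 and 0.27, and that of the ribosomal protein genes from 1.98 to 2.65 and 2.79. Relative to all genes, the excess of the ribosomal protein genes was 2.57, 2.53 and 2.52 under the 3 scalings. In tdTomato- cells this excess was 1.29, 1.27 and 1.27, and in the difference of injury effects it was 1.27 under each.

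**Figure D2:**
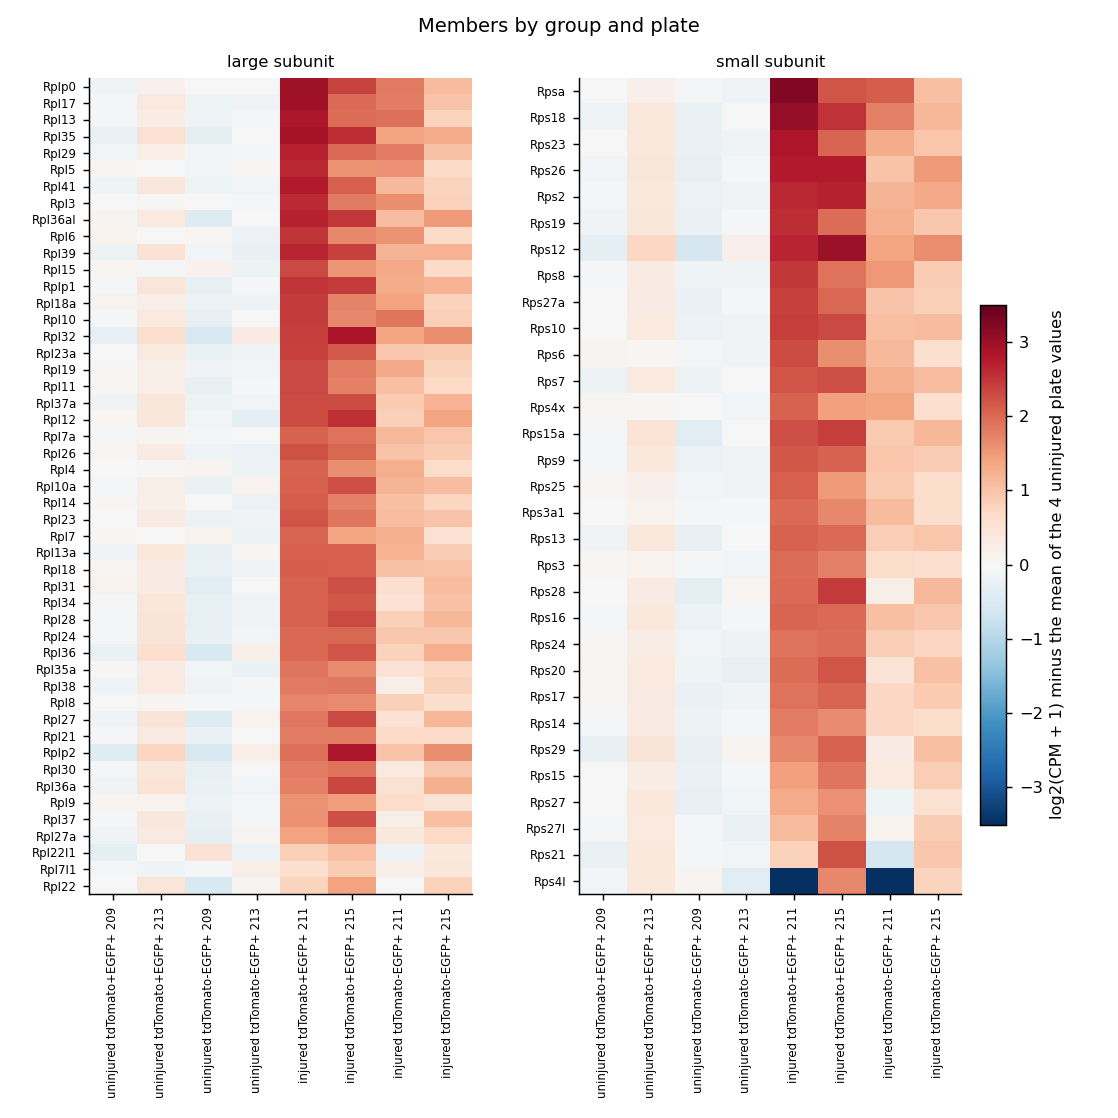
Level of 80 of the 82 genes at 10 CPM or more in each group and plate, as log2(CPM + 1) minus the mean of the 4 uninjured plate values of the gene, with the genes of each subunit sorted by injury difference in tdTomato+ cells. Nearly all rows are deepest in the injured tdTomato+ columns, paler in the injured tdTomato- columns, and Rps4l is at 0 CPM on plate 211.

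Gene by gene, the order of the groups held on the plates. In 77 of the 82 genes both injured tdTomato+ plate values were above the 6 plate values of the other groups, which held for 9.67% of all genes, and the exceptions were Rpl10, Rpl22, Rpl5, Rps21 and Rps4l. In 70 genes both injured tdTomato- values were above the 4 uninjured values, which held for 14.5% of all genes. Both orders together held for 68 genes, against 5.58% of all genes.

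The ribosomal stalk, which recruits elongation factors to the large subunit, is built from Rplp0 and the acidic proteins Rplp1 and Rplp2. Rplp0 stood at 501 and 610 CPM in uninjured tdTomato+ cells (plates 209 and 213), 539 and 548 in uninjured tdTomato- cells, 4286 and 2825 in injured tdTomato+ cells (plates 211 and 215) and 1952 and 1191 in injured tdTomato- cells. Its plate values separated the injured groups from each other and from the uninjured ones, which overlapped each other, and it had the second largest injury difference of tdTomato+ cells (2.90, 2.21 to 3.10) and one of 1.51 (1.12 to 1.86) in tdTomato- cells. Rplp1 stood at 184 and 259, 161 and 184, 1101 and 1069, and 481 and 452 CPM in the same order, with injury differences of 2.27 and 1.39. Rplp2 was at 62.8 and 141.1, 56.9 and 97.7, 319 and 598, and 167 and 263 CPM, so that the plates of 1 group differed about as much as the sorts. Its injury difference in tdTomato- cells, 1.35 from summed counts (0.77 to 2.19), became -0.33 when every cell weighed the same.

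Rpsa, which sits on the small subunit and binds laminin, had the largest injury difference in tdTomato+ cells, 3.11 (2.02 to 3.26), or 8.61-fold. Its levels were 259 and 297 CPM in uninjured tdTomato+ cells, 255 and 238 in uninjured tdTomato- cells, 2495 and 1205 in injured tdTomato+ cells and 1141 and 538 in injured tdTomato- cells. The plates of an injured group differed about as much as the sorts on a plate, and its injury difference in tdTomato- cells was 1.76. Rps18, a protein of the head of the small subunit, followed with 113.95 and 161, 105.7 and 127.6, 1063 and 735, and 425 and 283 CPM, at 2.88 (2.18 to 3.21) and 1.53 (1.14 to 2.00). Next among the genes above the median on every plate pair came Rpl35 (2.63, 2.06 to 3.13) and Rpl29 (2.57, 1.75 to 2.81), while Rpl17 (2.74) and Rpl13 (2.65), which were larger than Rpl35, did not lie above it on every pair. In tdTomato- cells the genes farthest above the median on every plate pair were Rpl17 (1.56), Rps12 (1.55), Rps18, Rplp0 and Rpl32 (1.44).

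Rpl41, the shortest ribosomal protein, showed the largest gap between the summed injured sorts (1.77). It was at 190 and 275 CPM in uninjured tdTomato+ cells, 189 and 198 in uninjured tdTomato- cells, 1439 and 898 in injured tdTomato+ cells and 467 and 364 in injured tdTomato- cells. Its difference between the injured sorts was 1.62 on plate 211 and 1.30 on plate 215, and its injury difference was larger in tdTomato+ cells by 1.47 (0.83 to 1.61). Among the genes above the median on both plates, Rps23, at the decoding centre, followed with 1.52 and 1.07 on the 2 plates, Rps18 with 1.32 and 1.37, Rpl35 with 1.51 and 1.28, and Rps26, at the messenger exit, with 1.78 and 1.29. Rpsa, at 1.55 in the summed groups, was at 1.13 and 1.16 on the plates, the first of which is below the median there.

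Rpl5 and Rpl11 carry 5S RNA into the large subunit and, when free, inhibit Mdm2 and so raise p53. Rpl5 was at 178 and 172 CPM in uninjured tdTomato+ cells, 159 and 174 in uninjured tdTomato- cells, 1061 and 506 in injured tdTomato+ cells and 523 and 271 in injured tdTomato- cells. The value of injured tdTomato+ cells on plate 215 thus lay below that of injured tdTomato- cells on plate 211, although on each plate tdTomato+ cells were higher by 1.02 and 0.90. Rpl11 was at 149.8 and 169, 118.2 and 137.1, 710 and 487, and 294 and 233 CPM, with no overlap of the injured groups and injury differences of 2.11 and 0.99. Rps27a, a ubiquitin fusion, was at 181, 152.75, 848 and 306 CPM in the uninjured tdTomato+, uninjured tdTomato-, injured tdTomato+ and injured tdTomato- groups. Fau, whose product holds a small subunit protein, was at 177, 147.9, 513 and 237 CPM. The symbol of Fau does not begin with Rp and is not among the 90, and its injury differences (1.53 in tdTomato+ and 0.67 in tdTomato- cells) were within the range of the 82 genes. Rack1, a scaffold protein of the small subunit, was at 441, 407, 1616 and 835 CPM, and Rps6, the substrate of S6 kinase by which mTORC1 activity is often read, at 241, 214, 1084 and 415 CPM, with injury differences of 2.16 and 0.96.

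**Figure D3:**
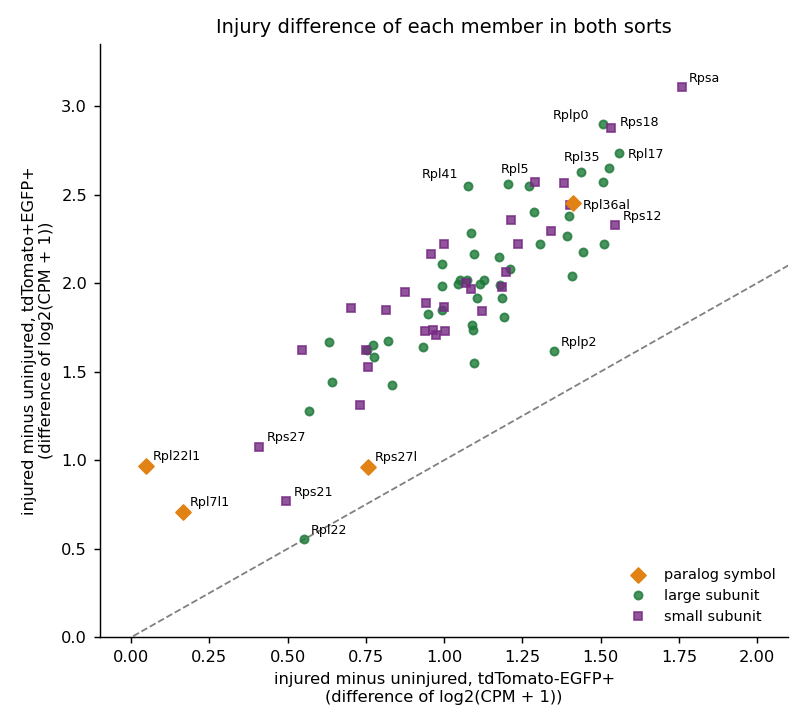
Injury difference of each gene in tdTomato+ cells (vertical axis) against that in tdTomato- cells (horizontal axis), both as differences of log2(CPM + 1), with a dashed line of equality; Rps4l, at -2.66 and 0.07, is left out. All points but Rpl22, which lies on the line in these summed groups, are above it, and 3 of the 4 paralog symbols shown sit at the low end. On the 4 plate pairs the difference of Rpl22 was larger in tdTomato+ cells, by 0.07 to 0.46.

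Paralog symbols did not all move with the genes they resemble. Rpl7l1, which in spite of its name is known as a factor of nucleolar ribosome assembly, was at 143.7 and 132.7 CPM in uninjured tdTomato+ cells, 143.5 and 171 in uninjured tdTomato- cells, 222 and 275 in injured tdTomato+ cells and 171 and 192 in injured tdTomato- cells. Its injury differences, 0.71 and 0.16, were among the smallest of both sorts. Per length of transcript, Rpl7l1 amounted to 36.8 and 46.8 per 100 of Rpl7 in the uninjured tdTomato+ and tdTomato- groups. In the injured ones it amounted to 15.2 and 26.3, but these values differed by plate. In injured tdTomato+ cells the ratio was 14.7 on plate 211 and 29.03 on plate 215, against 38.1 and 35.8 on the uninjured plates. In injured tdTomato- cells it was 19.6 on plate 211 and 36.4 on plate 215, against 36.2 and 52.98. In tdTomato- cells the plate 215 value thus lay within the uninjured range. Rpl22l1, which is known to replace Rpl22 in part and to affect splicing, was at 60.7 and 78.4, 110.35 and 67.1, 138.7 and 162, and 66.1 and 99.5 CPM, with injury differences of 0.97 and 0.05. Rpl22 itself, a protein that can be lost without loss of translation, was at 128.6 and 171, 88.9 and 136.8, 219 and 339, and 127.3 and 225 CPM, and its injury differences, 0.55 in each sort, were the smallest of the genes without a paralog symbol in tdTomato+ cells. The equal values of Rpl22 are those of the summed groups. On the 4 plate pairs its injury difference was larger in tdTomato+ than in tdTomato- cells, by 0.07 to 0.46. Without plate 211 the difference of Rpl22 in tdTomato+ cells was 1.14, where the median of the 82 genes was 1.81. Rps27l, a p53 target and paralog of Rps27, was at 63.1 and 82.4, 63.8 and 54.96, 141.6 and 219, and 71.1 and 122.9 CPM, with injury differences of 0.96 and 0.76, and the share of Rps27l per 100 of Rps27 per length stayed between 35.9 and 52.6 on all plates. Rpl36al, unlike these, moved with the class: it was at 33.6, 25.96, 188 and 70.8 CPM in the 4 groups and its injury differences were 2.45 and 1.41.

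Rps4l was the 1 gene called lower in each of the 3 comparisons with a gene called lower, and its value was set by plate 211. It had 0 counts there in both sorts, which allows up to 0.102 CPM in tdTomato+ and 0.246 CPM in tdTomato- cells (3 counts of the total), against 327 and 177 CPM on plate 215 and 79.3 to 131.9 CPM on the uninjured plates. Without plate 211 its injury difference in tdTomato+ cells was 1.48 rather than -2.66 and its difference between the injured sorts 0.88 rather than -2.33. Rps4l was among the 307 symbols with no count on plate 211, together with symbols of unrelated genes, while its parent Rps4x was at 2003 CPM there. Rps4l is a transcribed pseudogene that resembles Rps4x, so reads could have been split between both. The -ps pseudogene symbols behaved alike: 3 of 320 had counts on plate 211 against 183 to 204 on the other plates.

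The 8 genes under 10 CPM were Rpl3l, Rpl6l, Rpl10l, Rpl32l, Rpl39l, Rps3a2, Rps3a3 and Rps12l1. The muscle paralog Rpl3l reached 0.26 CPM at most, the testis paralogs Rpl10l and Rpl39l 1.15 and 0.703 CPM, and Rps3a3 1.26 CPM in any group. Rpl32l had no counts, which allows up to 0.117 CPM in the group of lowest depth. Their differences cannot be read at this depth.

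At the low end among the genes without a paralog symbol were also Rps21 and, in tdTomato- cells, Rps27 (0.41) and Rpl27a (0.57). Rps21, singled out after its values were seen, was at 62.3 and 94.4 CPM in uninjured tdTomato+ cells, 70.2 and 67.8 in uninjured tdTomato- cells, 126.8 and 343 in injured tdTomato+ cells and 47.6 and 142.1 in injured tdTomato- cells. On plate 211 it was below the uninjured cells in tdTomato- cells, and on plate 215 above them, so no injury difference can be given for it in that sort. Between the sorts it was higher in injured tdTomato+ cells by 1.39 on plate 211 and 1.27 on plate 215.

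The plates of 1 treatment differed gene by gene in the same way in both sorts. Plate 211 minus plate 215 ran from -1.43 (Rps21) to 1.07 (Rpl5) in tdTomato+ cells and from -1.56 (Rps21) to 1.15 (Rpl13) in tdTomato- cells, and 66 of 81 genes were on the same side of the median in both. For plate 209 minus plate 213 this held for 57 of 81 genes. The plate differences moved with annotated transcript length across the 81 genes, with Spearman coefficients of 0.45 and 0.58 for the injured and 0.51 and 0.38 for the uninjured plates. The points of 1 comparison share their libraries and genes are not independent. On the injured plates, genes longer than the median of 681 bases had median plate differences of 0.31 and 0.30, and shorter genes had -0.02 and -0.24. Length also went with the summed differences, with coefficients of 0.30 and 0.19 for injury in tdTomato+ and tdTomato- cells, 0.15 for the injured sorts and -0.33 for the uninjured sorts. The part of length and plate in the ranking of single genes was not tested.

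**Figure D4:**
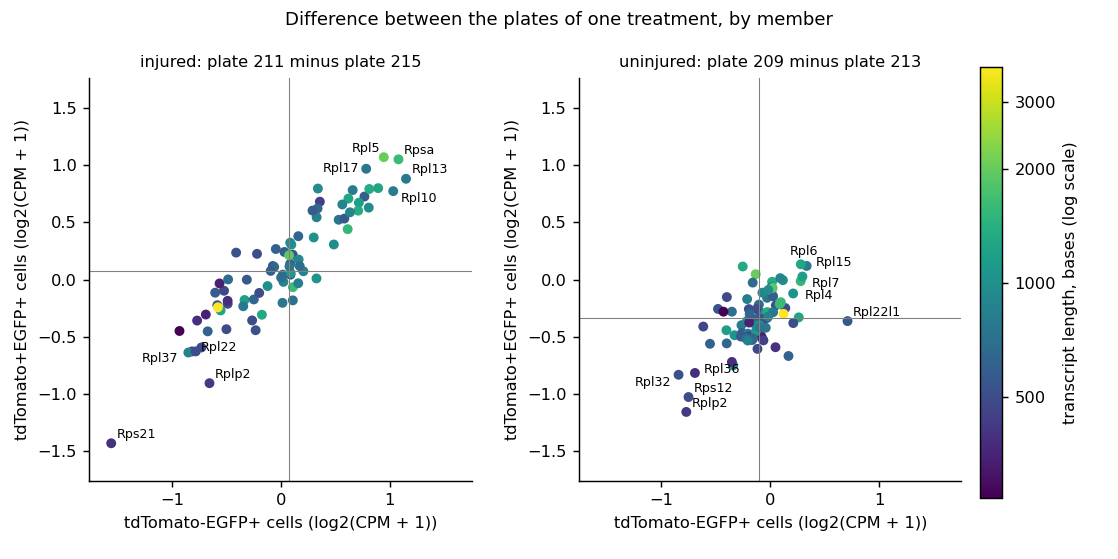
Difference between the plates of 1 treatment for each of 81 genes, with tdTomato- cells on the horizontal and tdTomato+ cells on the vertical axis (log2(CPM + 1)), coloured by annotated transcript length (dark for short), and grey lines at the medians. On the injured plates the points lie along the diagonal from Rps21 (-1.56 and -1.43) to Rpsa (1.08 and 1.05), and most of the darkest points lie at or below the medians.

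Per kilobase of transcript, the most abundant gene was Rps14 in both uninjured groups, with 685 CPM per kb in tdTomato+ cells, where the median was 206, and 582 in tdTomato- cells, where it was 177. In injured tdTomato+ cells Rpl41 (3226) and Rplp0 (3098) led with a median of 858, and in injured tdTomato- cells Rplp0 (1143) with a median of 387. Rps14 is a protein of the platform of the small subunit. The leading gene was thus of the small subunit in the uninjured groups and of the large subunit in the injured groups.

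Other genes of translation, taken from lists chosen with earlier results of these data known, were compared on the same scale. The 19 other TOP messenger genes, among them elongation factors, had injury medians of 1.40 in tdTomato+ and 0.72 in tdTomato- cells, with 13 and 8 called higher and 0 lower, where 13.2% and 11.5% of all genes were called higher and 37.1% and 18.7% lower. These shares of all genes hold for each list below. Eef1a1, which delivers aminoacyl-tRNA, was at 1385, 1300, 10525 and 4330 CPM in the uninjured tdTomato+, uninjured tdTomato-, injured tdTomato+ and injured tdTomato- groups, and Npm1, a nucleolar chaperone, at 245, 207, 2121 and 503 CPM. At the other end, Eif3k was at 197, 196, 230 and 203 CPM and Eif3e at 193, 201, 266 and 200 CPM. Of 45 ribosome assembly genes, 27 were called higher and 1 lower in tdTomato+ cells (median 1.27) and 11 and 0 in tdTomato- cells (0.58). Mrto4, a factor of large subunit assembly, was at 14.9, 17.4, 91.6 and 40.9 CPM, and Nop58, a core protein of snoRNA particles, at 55.1, 66.3, 299 and 146.4 CPM, whereas Taf1b, of the RNA polymerase I machinery, was at 60.1, 57.1, 26.6 and 35.9 CPM and Ubtf, of the same machinery, at 102.2, 103.99, 87.1 and 99.2 CPM.

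Translation initiation genes differed less. Their 29 genes had injury medians of 0.43 and 0.36, with 9 higher and 1 lower in tdTomato+ and 4 higher and 0 lower in tdTomato- cells. The helicase Eif4a1 was at 282, 291, 1841 and 793 CPM and its paralog Eif4a2 at 678, 631, 318 and 373 CPM, so their order was opposite in injured and uninjured groups of both sorts. Eif5a, known to keep ribosomes moving through proline stretches, was at 435, 427, 1947 and 874 CPM, and Eif2b4, of the exchange factor of eIF2, at 137.5, 116.4, 104.1 and 89.96 CPM. The 76 mitochondrial ribosomal protein genes, which serve the separate ribosome of mitochondria, had medians of 0.18 and 0.15, with 5 called higher and 0 lower in each sort. The share called higher was thus near that of all genes for the initiation genes of tdTomato- cells and below it for the mitochondrial ribosome. The medians of both lists still lay above those of all genes (-0.59 in tdTomato+ and -0.20 in tdTomato- cells). In these sorts 28 and 26 of the 29 initiation genes exceeded that median, as did 74 and 66 of the 76 mitochondrial ribosome genes. Mrps18b, of the small subunit of the mitochondrial ribosome, was at 22.2, 23.4, 66.9 and 42.5 CPM. Mrpl33, among the 5 called higher in each sort, had counts on plate 211 alone and gives no comparison. Among regulators of the class, Myc was at 10.1, 6.43, 52.9 and 47.6 CPM and Eif4ebp1, a repressor of cap-dependent translation that mTORC1 switches off, at 28.5, 26.7, 127.1 and 86.2 CPM. Ddit4, an inhibitor of mTORC1, was at 60.8, 46.6, 9.28 and 25.5 CPM, and Zbtb4 at 96.7, 119.6, 19.8 and 55.3 CPM. The regulators had no common side: 2 were called higher and 5 lower of 24 in tdTomato+ cells, both smaller shares than among all genes, with a median of -0.36 that was above the median of all genes.

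**Figure D5:**
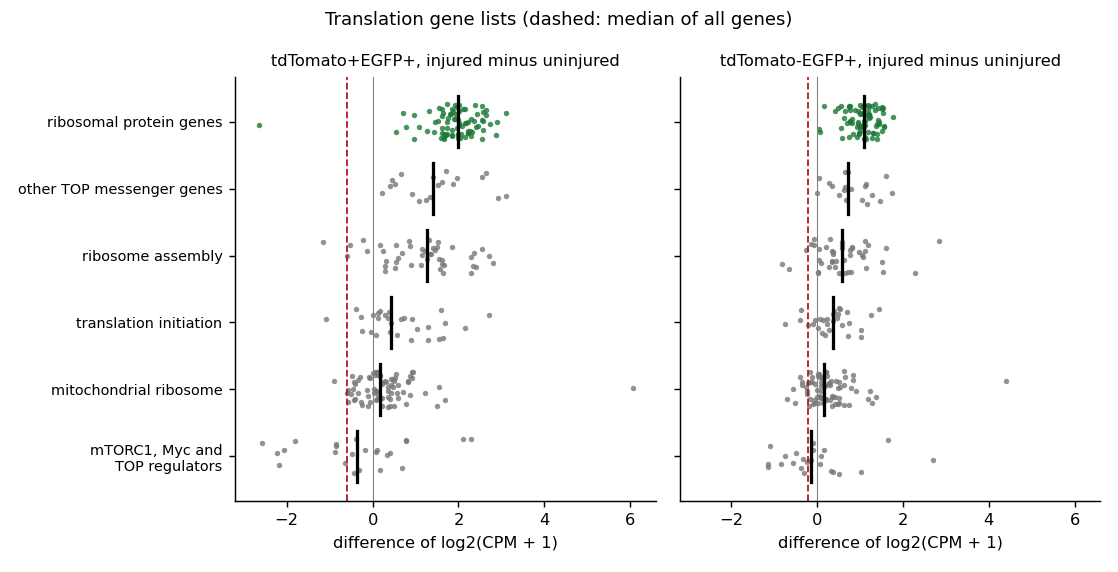
Injury difference (difference of log2(CPM + 1)) of each gene of 6 lists in tdTomato+ (left) and tdTomato- cells (right), with a bar at each list's median and a dashed line at the median of all genes. The ribosomal protein genes have the highest median of the 6 lists (1.98 and 1.08), with Rps4l far to the left of the others at -2.66, and the mitochondrial ribosome lies near 0 apart from Mrpl33.

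Cell by cell within each group and plate, the shares of the large and the small subunit went together, with Spearman coefficients of 0.78 to 0.99 over 34 to 88 cells, and the ribosomal protein share went with that of the other TOP genes at 0.38 to 0.95. The ribosome assembly genes went with it on the 4 injured sets of cells (0.40 to 0.67) and not on the 4 uninjured sets (-0.12 to -0.05). All these shares come from the same library of a cell and share its depth, and counts per cell themselves went with the ribosomal protein share at -0.55 to 0.15, and the mitochondrial percent at 0.11 to 0.64. The pericyte markers had coefficients of -0.44 to -0.03 in all 8 sets. Perivascular fibroblast markers had -0.55 and -0.33 in injured tdTomato+ cells but 0.28 and 0.37 in injured tdTomato- cells, and fibrotic matrix genes -0.37 and -0.29 against 0.36 and 0.52. The difference between these coefficients was not tested. Of the single genes, Rps14 (median coefficient 0.75 over the 8 sets with the sum of the others), Rpl13 (0.71) and Rplp1 (0.71) followed the class most closely, and Rps4l (-0.08, over 6 sets), Rpl7l1 (-0.07), Rpl22l1 (0.10) and Rps2 (0.17) least.

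Proliferation markers moved with the groups. The summed level of 6 cycling markers was 8.33 and 8.52 CPM in the uninjured and 1167 and 626 CPM in the injured tdTomato+ and tdTomato- groups, and cells without a count of any of them numbered 97 and 82 in the uninjured tdTomato+ and tdTomato- groups and 18 and 44 in the injured ones. Over those cells alone, a choice made after seeing the data, the ribosomal protein share was 4.74% in injured tdTomato+ and 2.54% in injured tdTomato- cells, and the injury medians were 1.53 and 0.82. The difference between the injured sorts was 0.96 and the excess of injury in tdTomato+ cells 0.74. These values rest on few cells: of the 18 injured tdTomato+ cells, 13 were from plate 215 and 11 held fewer than 20000 counts, at which a count of 0 says little. The 7 deeper ones had a summed share of 4.70% and ran from 2.22% to 8.13% by cell, overlapping the 44 injured tdTomato- cells, which ran from 0.756% to 5.84%.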

How the data were processed

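The labels give 3 days after injury and the series' design text another time, and the labels were followed. Single cells were sorted from dissociated cord and made into Smart-seq3 libraries, sequenced on a NextSeq 500 and aligned by the authors to the mouse genome (mm10 per the labels). The deposited table holds whole-number counts per gene symbol and cell, with no normalization. Aligner, counter, annotation, strand setting and the use of molecular identifiers in counting are not given in the sources used here, and reads shared with near-identical pseudogenes could have been split. The authors' own clustering regressed out ribosomal content, which leaves these counts untouched. Of 503 labelled cells, 502 had 200 or more genes and under 20% mitochondrial counts, 34 were removed for Pecam1 above 1 on the ln(1 + counts per 10000) scale and above Pdgfrb, 0 for Gfap or Ptprc, and 468 were kept. The upper limit of 1200 genes in the methods was used as an alternative only, since it leaves 33 cells. No doublet caller was run. The 92 spike-in rows stayed out of library sizes, and 1465 columns of cells of no sample here were not used.

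Counts were summed per group and per group and plate and scaled to CPM, and differences were taken on log2(CPM + 1). The lone sample of each group allows no test, and counting intervals and limits (3 counts) cover counting error only. Genes and lists were chosen with earlier results of these data known. Named are, per comparison, the 5 genes farthest above and below the median at 50 CPM or more that lie on one side of it on every plate or plate pair, the paralog symbols, and a fixed set of stalk, 5S, fusion and scaffold genes, and from each other list the highest and lowest genes. Transcript length is that of the shortest APPRIS principal transcript in GENCODE vM21 for 81 genes. Python 3.11.15, R 4.3.3, edgeR 4.0.16 (TMM factors) and DESeq2 1.42.0 (size factors) were used, and the steps were checked on simulated data. Alternatives covered scaling, pseudocount, level filter, cell filters, thinning and leaving out each plate. Some genes are not reported here by name.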

Additional observations from a re-analysis of the deposited data

How the results depend on the processing

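Without replicates, an alternative was compared with the spread between plates. Of the median differences, TMM scaling moved the injured sorts to 1.56, injury in tdTomato+ cells to 2.65, injury in tdTomato- cells to 1.37 and their difference to 1.27, and DESeq2 size factors moved them to 1.70, 2.79, 1.33 and 1.45. With the mean of the CPM of each cell, injury in tdTomato- cells had 0.94. Thinning to 20000 counts and leaving out plate 211 gave the injured sorts 1.12 and 1.07. The limit of 1200 genes gave 3.62 for injury in tdTomato+ cells and leaves no injured tdTomato- cell. That value rests on 10 injured cells with 9912 counts. The median of all genes was 1.62 there, so the excess over it was 2.00, against 2.57 in the main setting. Cells without a cycling count gave 0.96, 1.53, 0.82 and 0.74. None of these medians changed direction.

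Counts of genes called higher moved more. The difference of injury effects had 26 genes and 73 under TMM, 77 under DESeq2 factors, 40 by the mean of cells, 8 and 42 without plates 211 and 213 and 12 in cells without a cycling count. The uninjured sorts had 0, and 7 by the mean of cells and 26 under the limit of 1200 genes. Under that limit 10 uninjured tdTomato+ and 13 uninjured tdTomato- cells were left. The medians of the ribosomal protein genes and of all genes were both 0.22 there. Cells without a cycling count gave 38 for the injured sorts and 18 for injury in tdTomato- cells.

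The share in uninjured tdTomato+ cells was 1.91% by the mean of cells, 1.63% without mitochondrial counts and with -ps symbols, 1.59% in cells without a cycling count, 1.65% over symbols common to all plates, 1.70% thinned, and 1.73% and 1.45% without plates 209 and 213. In uninjured tdTomato- cells these were 1.95%, 1.40%, 1.40%, 1.41%, 1.42%, 1.47%, 1.40% and 1.35%. In injured tdTomato+ cells, where -ps symbols moved it less, the others were 7.23%, 6.88%, 4.74%, 7.13% and 6.87%, and 5.64% and 6.87% without plates 211 and 215. In injured tdTomato- cells they were 3.20%, 2.98%, 2.96%, 2.54%, 3.05%, 3.19%, 2.67% and 3.26%, and 2.96% without the removal of Gfap, Ptprc and Pecam1 cells. Injured tdTomato+ cells stayed highest and injured tdTomato- cells next in each, while the uninjured groups changed places by the mean of cells.

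Of single genes, Rps4l changed sign between the injured sorts (0.17 by the mean of cells, 0.88 without plate 211), for injury in tdTomato+ cells (1.48) and in the difference of injury effects (0.49), both without plate 211, and Rplp2 for injury in tdTomato- cells (-0.33 by the mean of cells). The cause was not tested. No paired analysis was possible because the labels number no replicates shared by groups, so that the differences within a plate are values with no test. Depth limits injured tdTomato+ cells on plate 215, where 1 count is a larger share than elsewhere, and the 8 genes under 10 CPM.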
